A study of Mus musculus with 60 samples.

Results

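The genes that set, remove or protect DNA methylation, 10 in number, were followed through single mouse embryos: the maintenance pair Dnmt1 and Uhrf1, the de novo group Dnmt3a, Dnmt3b and Dnmt3l, the oxidising enzymes Tet1, Tet2 and Tet3, and the imprint guards Zfp57 and Trim28. All 10 were found in the table of 27238 genes by their Ensembl identifiers. The libraries came from 18 groups of single embryos and 2 donor cell types, with 3 libraries in each of the 20 groups and 60 in all. In vivo embryos came from superovulated C57BL/6 females mated with DBA2 males, NTC embryos were cumulus cell nuclear transfer (NT) embryos, and NTM embryos were reconstructed with nuclei of mouse embryonic fibroblasts (MEFs). Each type was collected at 6 stages (embryos of 1, 2, 4 and 8 cells, morulas, and blastulas as the labels call them), NT embryos after culture in vitro, and the donor cells were cumulus cells (CCs) and MEFs. All groups share the BDF1 background (C57BL/6 crossed with DBA2), and the recipient oocytes came from BDF1 females of 8 to 10 weeks. NT embryos were activated with strontium chloride and cytochalasin B and exposed to Scriptaid, a histone deacetylase inhibitor, none of which is described for in vivo embryos. MEFs were derived from mid-gestation BDF1 fetuses and held in low serum before transfer to synchronise their cell cycle. Nuclear transfer, activation, Scriptaid, culture and the source of the egg (BDF1 or C57BL/6 females) therefore cannot be told apart in any comparison of NT with in vivo embryos.

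DNA methylation is copied at cell division by Dnmt1, which Uhrf1 brings to half-methylated DNA, and it is laid down anew by Dnmt3a and Dnmt3b with their cofactor Dnmt3l, which has no methyltransferase activity of its own. The Tet enzymes oxidise methylcytosine, the first step of its active removal. In the early mouse embryo most methylation of the gametes is lost while imprints are kept, and Zfp57, a zinc finger protein of the oocyte and embryo, binds methylated imprinting control regions and recruits Trim28 (KAP1), the scaffold of a repressive complex.

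The genes lie apart from each other in the GRCm38 build (GENCODE M21). Dnmt3l spans chr10:78041947-78063622 on the plus strand and Tet1 chr10:62804570-62908996 on the minus strand. Tet2 spans chr3:133463679-133545139 on the minus strand. Uhrf1 (chr17:56303321-56323486) and Zfp57 (chr17:37001163-37010635) are both on the plus strand of chromosome 17. The other 5 are on chromosomes 9 (Dnmt1), 12 (Dnmt3a), 2 (Dnmt3b), 6 (Tet3) and 7 (Trim28), and all 10 are protein-coding.

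The bases upstream of the start are shown for Dnmt3l, Tet1 and Tet2, the genes with the largest called differences between NTC and in vivo embryos below. Each run is the 250 bases before a RefSeq transcription start (GRCm38.p6), read along the strand of the gene, with CpG dinucleotides, the methylatable letters, in capitals. The windows before the 3 starts of Dnmt3l are chr10:78042037-78042286, chr10:78049592-78049841 and chr10:78055085-78055334, that of Tet1 is chr10:62887325-62887574 and that of Tet2 chr3:133544391-133544640.
Dnmt3l, first start: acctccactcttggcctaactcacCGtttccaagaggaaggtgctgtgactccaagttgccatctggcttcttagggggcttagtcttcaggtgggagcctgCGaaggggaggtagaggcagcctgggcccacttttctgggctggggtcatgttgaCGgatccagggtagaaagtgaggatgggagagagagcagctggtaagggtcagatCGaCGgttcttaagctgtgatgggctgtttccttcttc
Dnmt3l, second start: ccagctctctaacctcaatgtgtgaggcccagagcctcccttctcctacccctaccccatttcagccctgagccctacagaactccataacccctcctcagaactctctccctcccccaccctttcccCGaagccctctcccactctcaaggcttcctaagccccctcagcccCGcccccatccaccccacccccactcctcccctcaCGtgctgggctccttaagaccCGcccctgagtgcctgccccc
Dnmt3l, last start: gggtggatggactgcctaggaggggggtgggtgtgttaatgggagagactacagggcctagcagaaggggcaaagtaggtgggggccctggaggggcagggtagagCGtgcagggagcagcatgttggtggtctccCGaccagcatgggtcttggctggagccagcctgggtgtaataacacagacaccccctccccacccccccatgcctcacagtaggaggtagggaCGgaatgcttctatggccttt
Tet1: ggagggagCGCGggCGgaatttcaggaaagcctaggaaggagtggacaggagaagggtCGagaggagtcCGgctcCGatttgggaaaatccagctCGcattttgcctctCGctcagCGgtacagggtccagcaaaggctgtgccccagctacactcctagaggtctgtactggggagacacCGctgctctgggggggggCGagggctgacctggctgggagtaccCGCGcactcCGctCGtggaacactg
Tet2: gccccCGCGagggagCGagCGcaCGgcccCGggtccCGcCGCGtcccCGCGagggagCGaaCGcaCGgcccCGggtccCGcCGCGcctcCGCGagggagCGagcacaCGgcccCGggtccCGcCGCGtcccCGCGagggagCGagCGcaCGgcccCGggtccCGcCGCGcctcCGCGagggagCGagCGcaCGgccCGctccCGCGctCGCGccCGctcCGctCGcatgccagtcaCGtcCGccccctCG

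The Dnmt3l windows hold 5, 4 and 3 CpG, the Tet1 window 15 and the Tet2 window 51, where the median over 32851 such windows is 6. Fewer CpG than at Tet2 are found in 99.9% of the windows, and the Tet2 run repeats a CpG-rich unit. Of motifs searched on both strands, the GC box (GGGCGG) is in the middle Dnmt3l window and in those of Tet1 and Tet2, as in 32.7% of all windows. The core of the Zfp57 motif (TGCCGC, in 8.68% of all windows) is in none of these 5. RefSeq gives 19 windows for the 10 genes, and these are letters of the reference, not measurements of methylation.

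Depth, the number of reads on genes to which a library was scaled, was 5294166 to 47830132 with a median of 15451427. All values are RPKM, read numbers divided by the exon length of the gene and by library depth, so that levels can be compared between genes. The oocyte genes Zp3, Gdf9, Bmp15, Oosp1, Zar1 and Nlrp5 summed to 1531 to 4463 RPKM in 1-cell and 2-cell libraries of all types, and the blastula genes (Cdx2, Krt8, Krt18, Nanog, Pou5f1 and Sox2) to 238 to 1097 in blastula libraries. The oocyte sum in 4-cell libraries was 58.8 to 76.9 RPKM in vivo, 48.8 to 69.5 in NTC and 29.2 to 382 in NTM embryos. The blastula sum reached 201 in NTC morulas and was 130 to 196 in CCs, where Cdx2, Nanog and Sox2 were at 0. In NTC blastulas 5 of the 6 genes had a mean of at least 1 RPKM. MEF libraries had 5523 to 7996 RPKM of 7 fibroblast genes, against at most 11.1 in any embryo library. The cumulus list did not separate the donor cells: 5 of its 7 genes had a mean of at least 1 RPKM in CCs and 4 in MEFs, Has2 was at 0 in CCs, and Foxl2 had 0.280, 0 and 1.38 RPKM in CCs and 0 in MEFs. Embryo libraries had at most 7.42 RPKM of the cumulus genes.

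A library of in vivo 1-cell embryos stood apart from its group in these genes. In vivo 1-cell replicate 1 had 9491 genes above 0, against 12187 and 12593 in the other 2 embryos, with about 13.4% mitochondrial reads against 4.71 and 6.26%. It was the lowest of its group for all members but Tet2, which was at 0 there and in replicate 2. Its Uhrf1 level was 14.1 RPKM against 115 and 96.0, its Tet3 level 8.04 against 61.8 and 52.6, and its Zfp57 level 50.7 against 717 and 706. Differences from in vivo 1-cell embryos of Dnmt1 (both NT types) and of Zfp57, Trim28 and Dnmt3a (NTC) are therefore given with and without it. In vivo morula replicate 1 had about 64.2% mitochondrial reads, against 30.8 and 29.6% in replicates 2 and 3. Its Dnmt1 (0.0166 RPKM), Uhrf1 (0.0123) and Tet2 (7.76) levels were the lowest of its group. Differences from in vivo morulas are given with this library only. In bulk values of a whole embryo, fewer cells of a type and less RNA per cell cannot be told apart.

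Most of the variance of the 10 genes over the 54 embryo libraries (on log2(RPKM + 1)) was between stages. Stage took 95.3% for Tet3, 88.6% for Zfp57, 84.1% for Dnmt1 and 83.8% for Uhrf1, and 53.4 to 64.5% for Dnmt3a, Dnmt3b, Tet1, Tet2 and Trim28. Dnmt3l was the exception, with 24.7% between stages, 2.05% between embryo types and 57.1% in the combination of stage and type. The plot of levels by stage shows the patterns behind these shares.

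**Figure D1:**
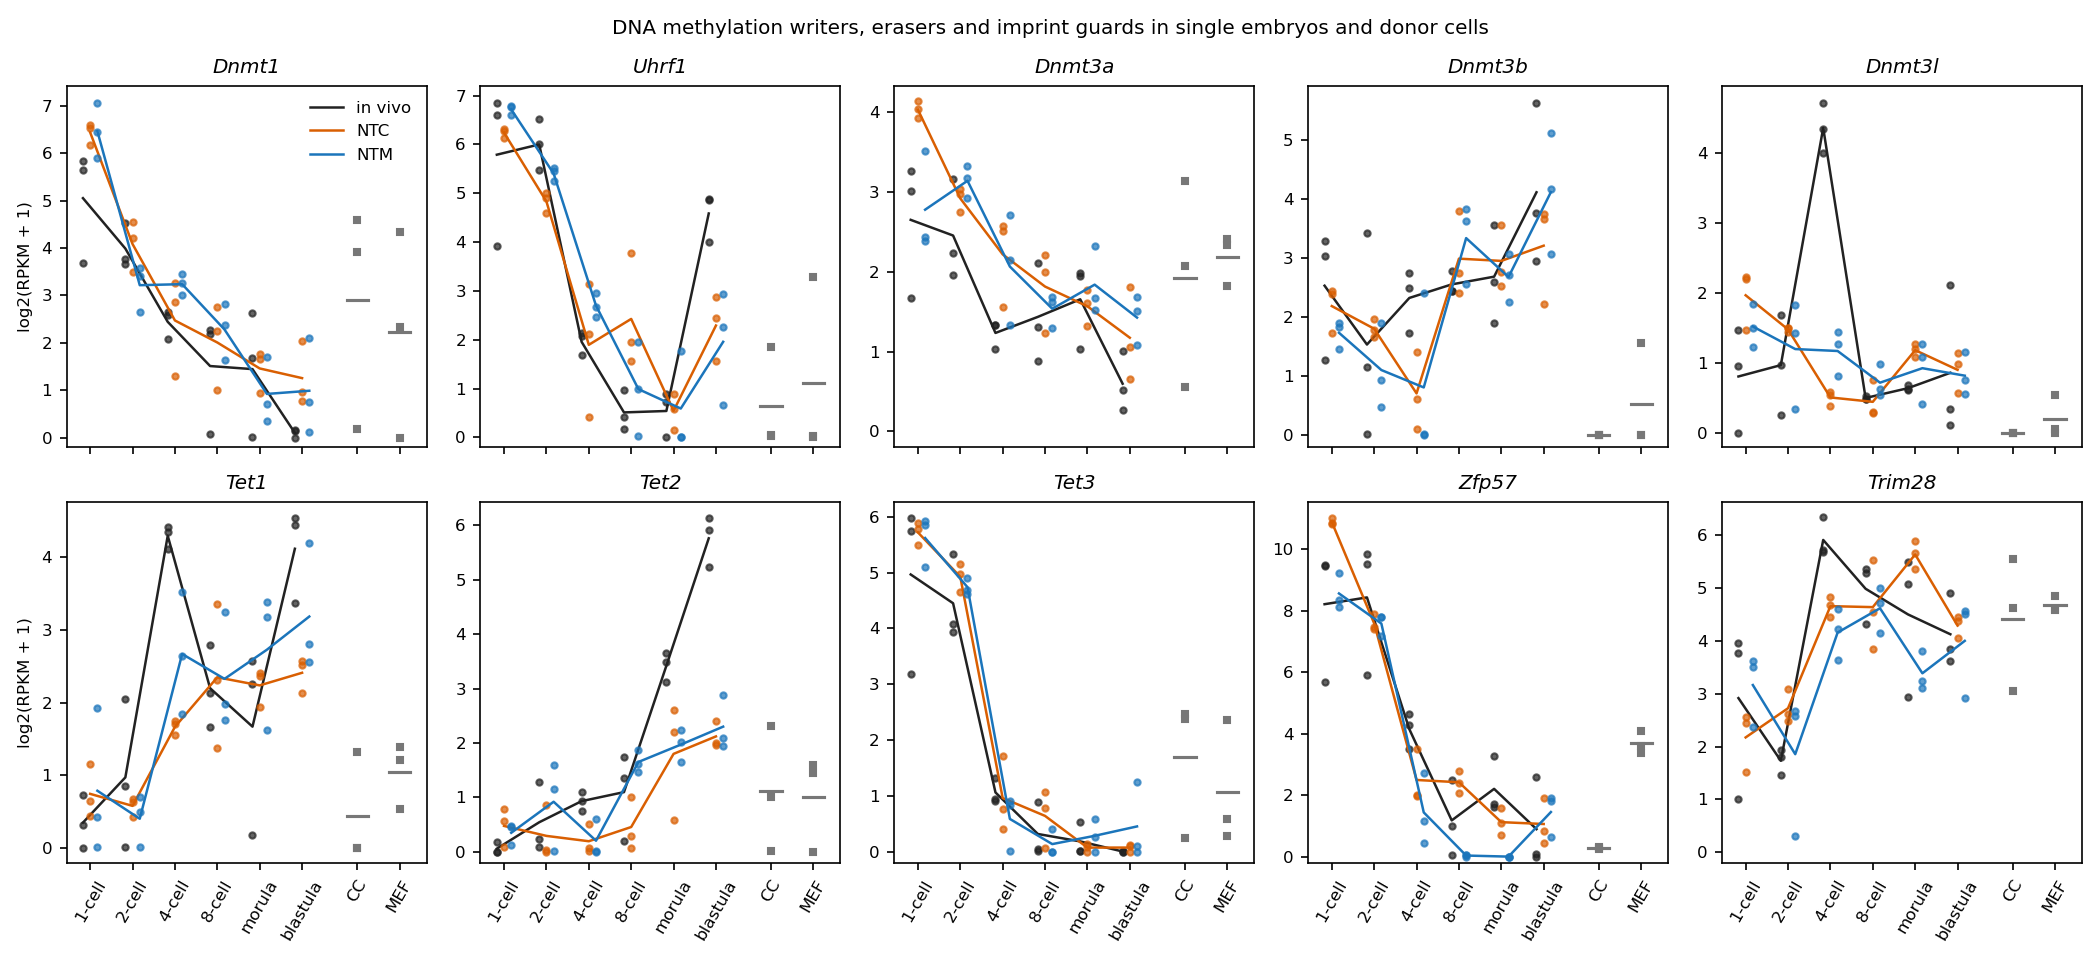
Expression of the 10 genes as log2(RPKM + 1) (y axis) at 6 stages and in CCs and MEFs (x axis). Points are single libraries, lines join the means of 3 libraries for in vivo (black), NTC (orange) and NTM (blue) embryos, and squares with bars are donor cells and their means. Dnmt1, Uhrf1, Tet3 and Zfp57 stand highest at the 1-cell and 2-cell stages, and Dnmt3l has a single peak, in in vivo 4-cell embryos.

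Differences are given as log2 changes of RPKM + 1 with their standard error (SE), from limma over all genes whose RPKM averaged 0.5 or more in that comparison. Calls needed an adjusted p (Benjamini-Hochberg over all tested genes) under 0.05 and a log2 change of at least 1 in size. When NT embryos were set beside stage-matched in vivo embryos, 8 differences were called among the 109 tested over 12 comparisons, all of them lower in NT embryos. Of the 10 members, 4 were called lower in NTC 4-cell embryos, where 27.8% of all genes were called and 20.4% were called lower. In NTM 4-cell embryos 3 were called lower, against 21.1% of all genes called and 17.8% called lower. In NTC blastulas 1 of 9 was called lower, against 9.46% of all genes called and 0.657% called lower. At the 4-cell stage the share of members called was thus not far from that of all genes, and the sizes of single changes, rather than the counts, are described below. Values did not overlap for 7 of 10 members in NTC and 8 of 10 in NTM 4-cell embryos. In either direction this held for 43.9 and 41.1% of all genes. Not all of these members lay below the in vivo values. In NTC embryos Dnmt3a lay above them (1.95 to 4.97 against 1.05 to 1.52 RPKM). In NTM embryos Dnmt1 (7.01 to 9.95 against 3.25 to 5.30) and Uhrf1 (4.57 to 6.75 against 2.21 to 3.37) did. The others lay below. Mitochondrial genes took about 5.68 to 8.87% of reads in vivo at this stage and 29.6 to 40.4% in NT embryos.

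In the other 9 comparisons with in vivo embryos limma called 0 members. All genes called were 1.16% (NTC) and 1.28% (NTM) in 1-cell, 0.152 and 0.141% in 2-cell, 1.46 and 2.02% in 8-cell embryos, 0.0321 and 0.168% in morulas and 0.746% in NTM blastulas. At an unadjusted p under 0.05 there were 3 and 1 members in 1-cell embryos, 1 and 0 in 2-cell embryos, 1 and 0 in 8-cell embryos, 1 and 2 in morulas and 2 in NTM blastulas. Without in vivo 1-cell replicate 1, limma called Zfp57 and Trim28 (-1.70, adjusted p = 0.0213) in NTC 1-cell embryos. With it, Trim28 differed by -0.74 (adjusted p = 0.603). Dnmt3a differed by +1.38 (adjusted p = 0.160) with it, and by +0.89 (adjusted p = 0.0499), too small for a call, without it. All genes called in this NTC comparison were 1524 of 10971 without it and 126 of 10834 with it. In NTM embryos no tested member was called without it, where 853 of 10360 genes were called, against 132 of 10307 with it.

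**Figure D2:**
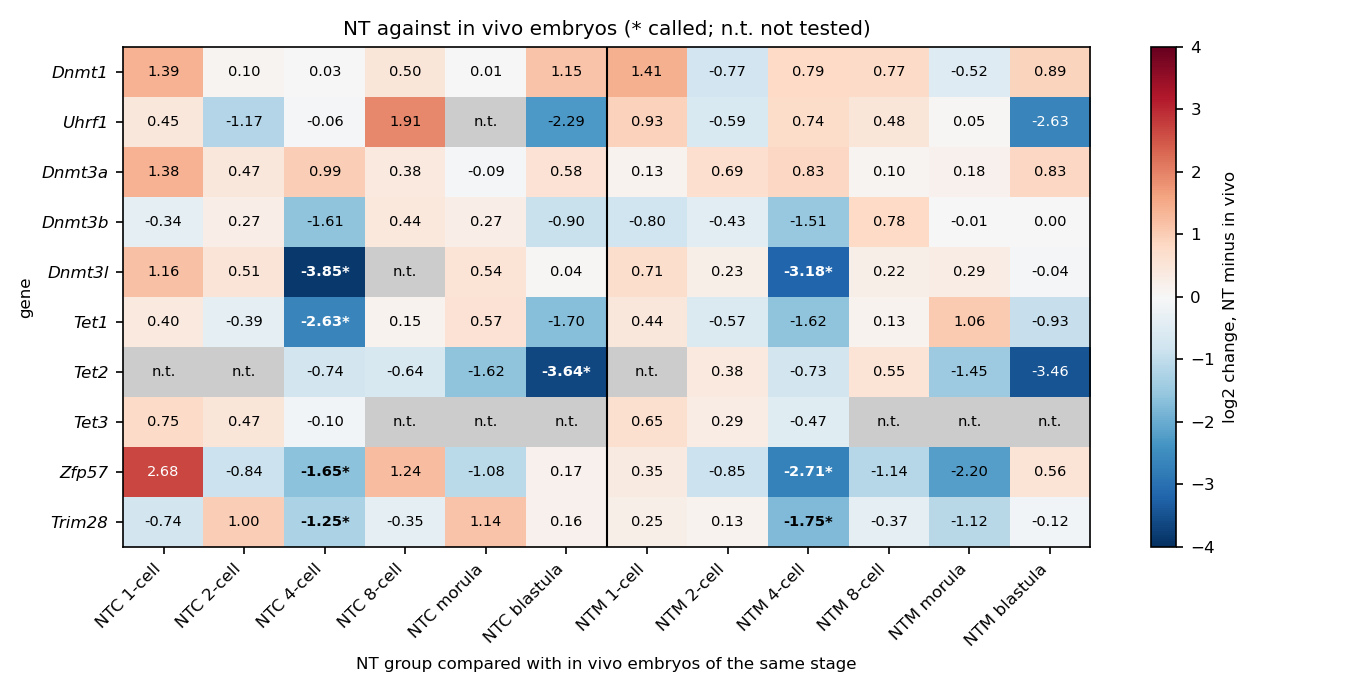
Log2 change of each gene (rows) of NT embryos minus stage-matched in vivo embryos (columns), 3 against 3 libraries. Blue is lower and red higher in NT embryos, an asterisk marks a called difference and grey a gene below the expression filter. The called changes stand in the 4-cell columns and, for Tet2 in NTC embryos, in the blastula column.

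Dnmt3l, the cofactor that stimulates Dnmt3a and Dnmt3b, was high at 1 stage of 1 embryo type. In vivo 4-cell embryos had 25.4, 19.4 and 15.1 RPKM, NTC embryos 0.316, 0.509 and 0.457, and NTM embryos 1.71, 0.753 and 1.42. Every NT library was far below every in vivo library at this stage. In all other 57 libraries Dnmt3l lay between 0 and 3.67 RPKM, including 2.21, 0.193 and 0.972 in in vivo 2-cell and 0.444, 0.404 and 0.404 in in vivo 8-cell embryos.

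The 4-cell difference of Dnmt3l was -3.85 (SE 0.41, adjusted p = 0.000248 in limma) in NTC and -3.18 (SE 0.50, adjusted p = 0.00435) in NTM embryos. Leaving out any single library kept both calls, with changes of -4.02 to -3.67 and -3.36 to -3.0. With reads of nuclear genes only they were -3.75 (adjusted p = 0.000594) and -2.91 (adjusted p = 0.0119). Relative to the median of all genes, which was lower by 0.39 in NTC and 0.69 in NTM embryos (-0.39 and -0.69), the changes of Dnmt3l were -3.46 and -2.50. With median-ratio scaling the same relative changes were -3.52 and -2.48.

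The 2-cell to 4-cell step of Dnmt3l was +3.39 (SE 0.47, adjusted p = 0.000834 in limma) in vivo, -0.97 (adjusted p = 0.126) in NTC and -0.03 (adjusted p = 0.977) in NTM embryos. The step itself differed from that in vivo by -4.36 (SE 0.60, adjusted p = 0.000506, interaction term) in NTC and by -3.41 (SE 0.76, adjusted p = 0.0140) in NTM embryos, the latter not called with a pseudocount of 0.1 (adjusted p = 0.0857). For comparison, 14.3% of all genes were called in the NTC interaction and 9.91% in the NTM interaction. From the 4-cell to the 8-cell stage Dnmt3l fell by 3.86 in vivo (SE 0.37, adjusted p = 0.000203).

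**Figure D3:**
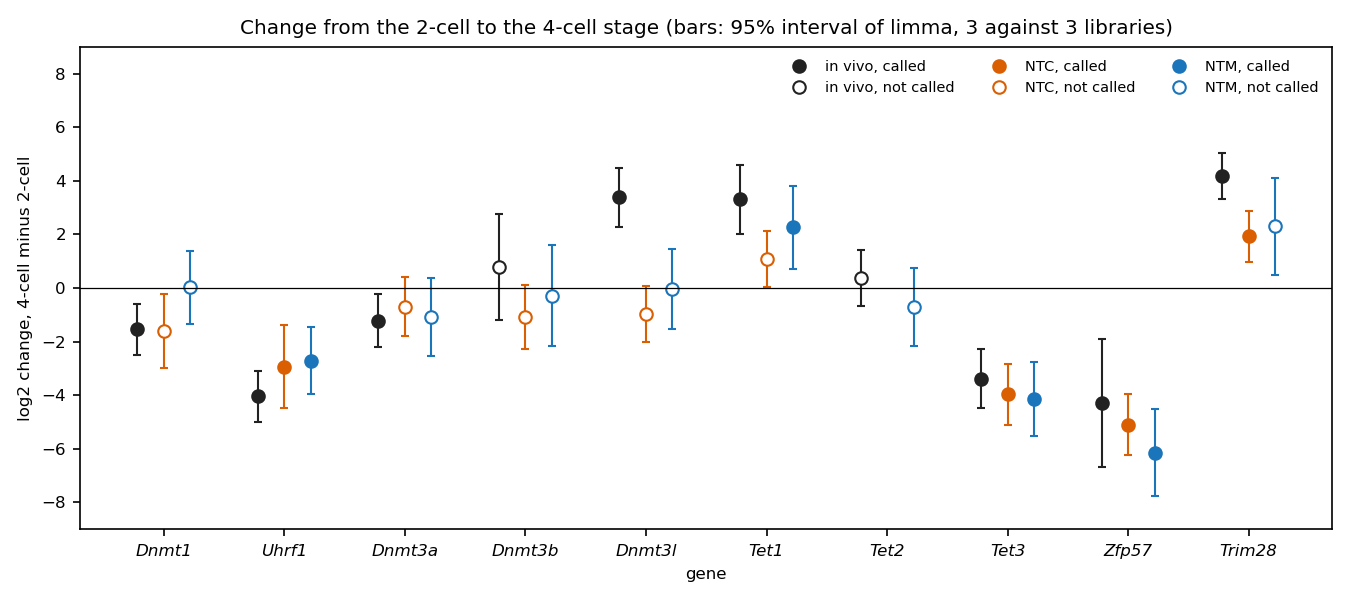
Log2 change of each gene (x axis) from the 2-cell to the 4-cell stage in in vivo, NTC and NTM embryos, with 95% intervals of limma over 3 against 3 libraries. Filled points are called, open ones are not, and Tet2 was below the filter in NTC embryos. Dnmt3l stands above 0 in in vivo embryos (3.39) and at or below 0 in both NT types (-0.97 and -0.03), while Uhrf1, Tet3 and Zfp57 fall in all 3.

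Its partners among the de novo enzymes did not share this pattern. Dnmt3a, which methylates DNA in oocytes and at implantation, was highest in NTC 1-cell embryos at 15.4, 14.2 and 16.6 RPKM, against 4.23, 10.4 and 4.41 in NTM and 2.2, 7.07 and 8.60 in in vivo 1-cell embryos. The NTM difference from NTC was -1.25 (SE 0.35, adjusted p = 0.0309 in limma), a call that was lost without any one NTC library and without NTM replicate 1 or 3, with no filter on low values (adjusted p = 0.0686) and with one fit over all groups (adjusted p = 0.0918). From the 4-cell stage on, every embryo library had at most 5.56 RPKM of Dnmt3a.

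Dnmt3b, the main de novo enzyme of the epiblast, had at most 13.1 RPKM in any embryo library up to the morula. Higher levels were found only among in vivo and NTM blastulas. Of its variance over the embryo libraries, 34.6% was between replicates. In vivo blastulas had 6.75, 12.5 and 48.4 RPKM, NTC blastulas 11.6, 12.4 and 3.66, and NTM blastulas 33.4, 17 and 7.37, so that the groups overlapped. Dnmt3b made up 92.6 to 99.3% of the summed Dnmt1, Dnmt3a and Dnmt3b RPKM in in vivo blastulas, 51.5 to 87.4% in NTC and 85.9 to 87.1% in NTM blastulas.

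At the 4-cell stage Dnmt3b had 2.31, 5.72 and 4.66 RPKM in vivo, NTC embryos had 1.66, 0.529 and 0.0764, and NTM embryos 4.29, 0 and 0.0212. NTC values lay below the in vivo ones with no overlap (-1.61, SE 0.54, adjusted p = 0.0531 in limma), and NTM values overlapped them (-1.51, SE 0.76, adjusted p = 0.193). Leaving out NTC replicate 1 gave a call (-1.97, adjusted p = 0.0293), as did leaving out NTM replicate 1 (-2.31, adjusted p = 0.0322).

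The maintenance enzyme Dnmt1 was highest in 1-cell embryos, with 71.3, 95.9 and 91.6 RPKM in NTC, 58.3, 133 and 85.6 in NTM and 11.8, 48.8 and 56.2 in in vivo embryos. All 6 NT libraries were above all 3 in vivo libraries, and 33.5 (NTC) and 23.1% (NTM) of all genes were without overlap at this stage. The differences of +1.39 (NTC, adjusted p = 0.196 in limma) and +1.41 (NTM, adjusted p = 0.322) were not called. Without in vivo replicate 1 they were +0.70 (adjusted p = 0.0505) and +0.72 (adjusted p = 0.242). By the blastula stage Dnmt1 was at 0.101, 0 and 0.124 RPKM in vivo, NTC embryos had 3.12, 0.700 and 0.947 and NTM embryos 3.28, 0.678 and 0.0920.

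From the 1-cell to the 2-cell stage it fell by 2.35 (SE 0.32, adjusted p = 0.00260 in limma) in NTC and by 3.25 (SE 0.45, adjusted p = 0.00453) in NTM embryos, while in vivo the change was -1.06 (adjusted p = 0.820), or -1.75 (adjusted p = 0.522) without in vivo replicate 1. From the 2-cell to the 4-cell stage it fell by 1.55 (SE 0.40, adjusted p = 0.0145) in vivo, a call lost without in vivo 4-cell replicate 2 and with one fit over all groups (adjusted p = 0.0911). At the same step the change was -1.61 (SE 0.61, adjusted p = 0.0682) in NTC and +0.02 (adjusted p = 0.981) in NTM embryos. Dnmt1 was not called in the interactions of NT with in vivo embryos at the 1-cell to 2-cell step (adjusted p = 0.552 in NTC and 0.298 in NTM) or at the 2-cell to 4-cell step (adjusted p = 0.967 and 0.174).

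Uhrf1, the partner that guides Dnmt1, had 96.4, 108 and 109 RPKM in NTM, 79.2, 68.7 and 76.7 in NTC and 14.1, 115 and 96.0 in in vivo 1-cell embryos. From the 2-cell to the 4-cell stage it fell in all 3 types, by 4.04 in vivo (SE 0.40, adjusted p = 0.000192 in limma), by 2.94 in NTC (SE 0.68, adjusted p = 0.0101) and by 2.71 in NTM embryos (SE 0.55, adjusted p = 0.00819). In vivo it reached 0.0123, 0.657 and 0.842 RPKM in morulas.

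In vivo blastulas had Uhrf1 again, at 15.1, 28.6 and 28.1 RPKM, while NTC blastulas had 6.35, 4.42 and 1.95 and NTM blastulas 6.69, 3.81 and 0.590. In vivo blastula libraries had fewer genes above 0 (7730 to 7808, against 11498 to 13568 in NT blastulas). They also correlated less with each other (r = 0.75 to 0.76, against 0.92 to 0.95 in NTC and 0.91 to 0.94 in NTM blastulas). The part of this in the blastula differences of Uhrf1 and of the other members was not tested. The in vivo values lay above all NT values, and 35.1% (NTC) and 32.6% (NTM) of all genes were without overlap in these comparisons. The differences were -2.29 (SE 0.66, adjusted p = 0.0687 in limma) and -2.63 (SE 0.82, adjusted p = 0.0961), neither of them called. With one fit over all 20 groups they were called, with adjusted p = 0.0155 and 0.00592. The median of all genes was higher in NT blastulas by 0.85 and 0.86, and relative to it Uhrf1 differed by -3.14 and -3.49.

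The Tet enzyme with the highest mean level changed over development, as the stacked plot of mean levels shows. In vivo it was Tet3 in 1-cell and 2-cell embryos, Tet1 in 4-cell and 8-cell embryos and Tet2 in morulas and blastulas. In vivo blastulas still had Tet1, at values that overlapped those of in vivo 4-cell embryos. In both NT types it was Tet3 in 1-cell and 2-cell embryos and Tet1 at all later stages, so Tet2 did not take the place of Tet1 there. Tet3, which oxidises the paternal genome of the zygote, made up 98.9 to 100% of the summed Tet RPKM in in vivo 1-cell embryos. It had 43.9, 58.5 and 53.7 RPKM in NTC, 59.5, 33.1 and 56.5 in NTM and 8.04, 61.8 and 52.6 in in vivo 1-cell embryos, and the NT groups overlapped the in vivo group. From the 2-cell to the 4-cell stage Tet3 fell by 3.39 in vivo (SE 0.47), by 3.96 in NTC (SE 0.50) and by 4.15 in NTM embryos (SE 0.61), with adjusted p = 0.000840, 0.000650 and 0.00213 in limma. Differences between these steps were -0.57 (95% interval of the limma fit -2.06 to 0.91) for NTC and -0.76 (-2.31 to 0.79) for NTM against in vivo embryos.

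**Figure D4:**
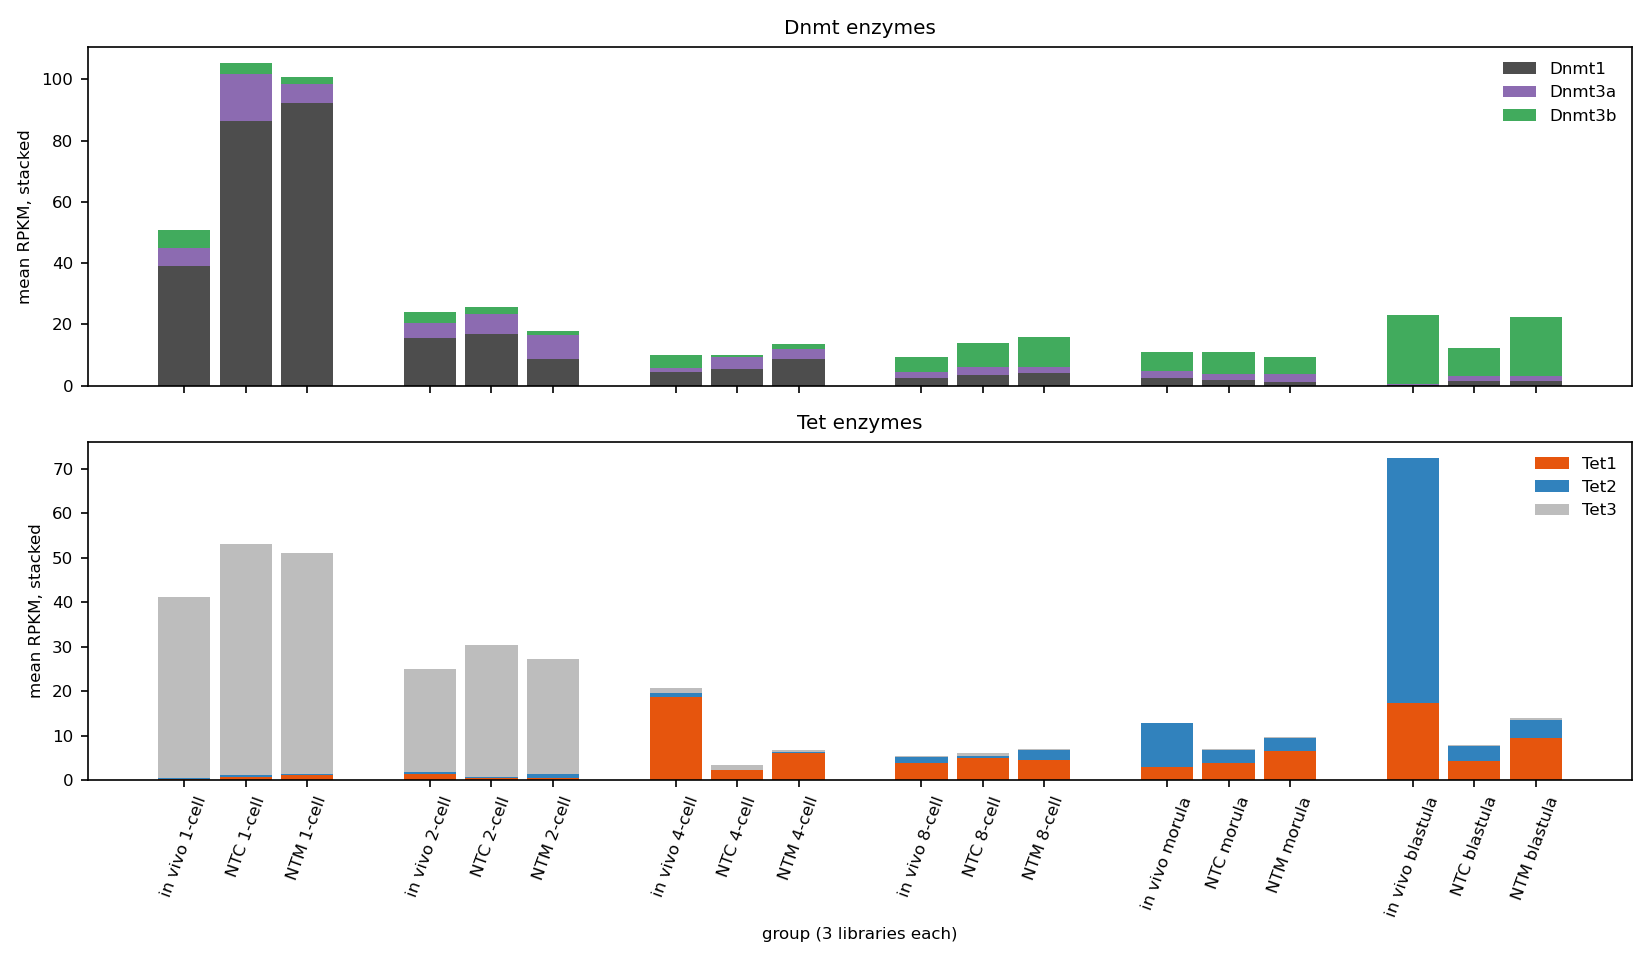
Mean RPKM of 3 libraries (y axis, stacked from 0) of the methyltransferases Dnmt1, Dnmt3a and Dnmt3b (top) and of the 3 Tet enzymes (bottom) in the 18 embryo groups (x axis). Tet3 fills the bars of 1-cell and 2-cell embryos, Tet1 that of in vivo 4-cell embryos (mean 18.7 RPKM) and Tet2 most of that of in vivo blastulas (mean 55.1 RPKM), whereas the Tet bars of NT 4-cell embryos and NT blastulas are lower than those in vivo.

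Tet1, the Tet enzyme of embryonic stem cells and the inner cell mass, had 16.3, 19.4 and 20.3 RPKM in in vivo 4-cell embryos, while NTC embryos had 2.26, 2.36 and 1.93 and NTM embryos 5.27, 10.4 and 2.59. Every NT value was below every in vivo value. NTC embryos differed by -2.63 (SE 0.36, adjusted p = 0.00100 in limma), and no single library changed this call. Relative to the median of all genes the change was -2.24, and -2.20 with median-ratio scaling. NTM embryos differed by -1.62 (SE 0.55, adjusted p = 0.0717), which was not called, and by -2.05 (adjusted p = 0.0227) without NTM replicate 2, its highest library. The direct difference of NTM from NTC 4-cell embryos was +1.00 (adjusted p = 0.814), so the 2 NT types were not shown to differ.

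Tet1 rose from the 2-cell to the 4-cell stage by 3.32 in vivo (SE 0.55, adjusted p = 0.00191 in limma) and by 2.26 in NTM embryos (SE 0.68, adjusted p = 0.0381, lost without any one of 5 of the 6 libraries, with no filter and with median-ratio scaling), and changed by +1.09 (adjusted p = 0.0939) in NTC embryos. The NTC step was smaller than that in vivo by 2.23 (-2.23, SE 0.68, adjusted p = 0.0439, interaction term), a call that was lost without any one of 11 of the 12 libraries and with a pseudocount of 0.1, no filter, median-ratio scaling, nuclear genes only or one fit (adjusted p = 0.0527 to 0.237). In vivo Tet1 then fell by 2.10 to the 8-cell stage (SE 0.40, adjusted p = 0.00453), where the median of all genes was -1.05, and with median-ratio scaling the change was -0.85 (adjusted p = 0.160) and not called. In blastulas Tet1 had 9.33, 22.2 and 20.7 RPKM in vivo, whereas NTC embryos had 4.97, 3.41 and 4.72 and NTM embryos 17.3, 5.97 and 4.87. NTC values were below the in vivo values without overlap (-1.70, SE 0.63, adjusted p = 0.126), and NTM values overlapped them.

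Tet2, the enzyme best known from blood cells and also active in embryonic stem cells, was at or below 2.66 RPKM in every embryo library before the morula. In vivo morulas had 7.76, 11.5 and 10.2 RPKM, while NTC morulas had 5.10, 0.503 and 3.62 and NTM morulas 2.15, 3.04 and 3.73. In vivo values lay above the NT values without overlap, and 20.6% and 16.2% of all genes were without overlap in either direction. The differences of -1.62 and -1.45 were not called (adjusted p = 0.296 and 0.379 in limma).

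In blastulas Tet2 reached 36.8, 69.2 and 59.4 RPKM in vivo, whereas NTC embryos had 3.01, 4.29 and 2.90 and NTM embryos 6.34, 2.85 and 3.24. The lowest in vivo library was above the highest NT library by more than any spread within the NT groups. The NTC difference was -3.64 (SE 0.60, adjusted p = 0.0267 in limma), and -3.46 (adjusted p = 0.0722) without NTC replicate 2. The NTM difference was -3.46 (SE 0.68, adjusted p = 0.0507), and -3.35 (adjusted p = 0.0362) without NTM replicate 3. Relative to the median of all genes the changes were -4.49 and -4.32. Tet2 took 74.1 to 79.8% of the summed Tet RPKM in in vivo blastulas, 37.4 to 55.1% in NTC and 25.3 to 40.0% in NTM blastulas.

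**Figure D5:**
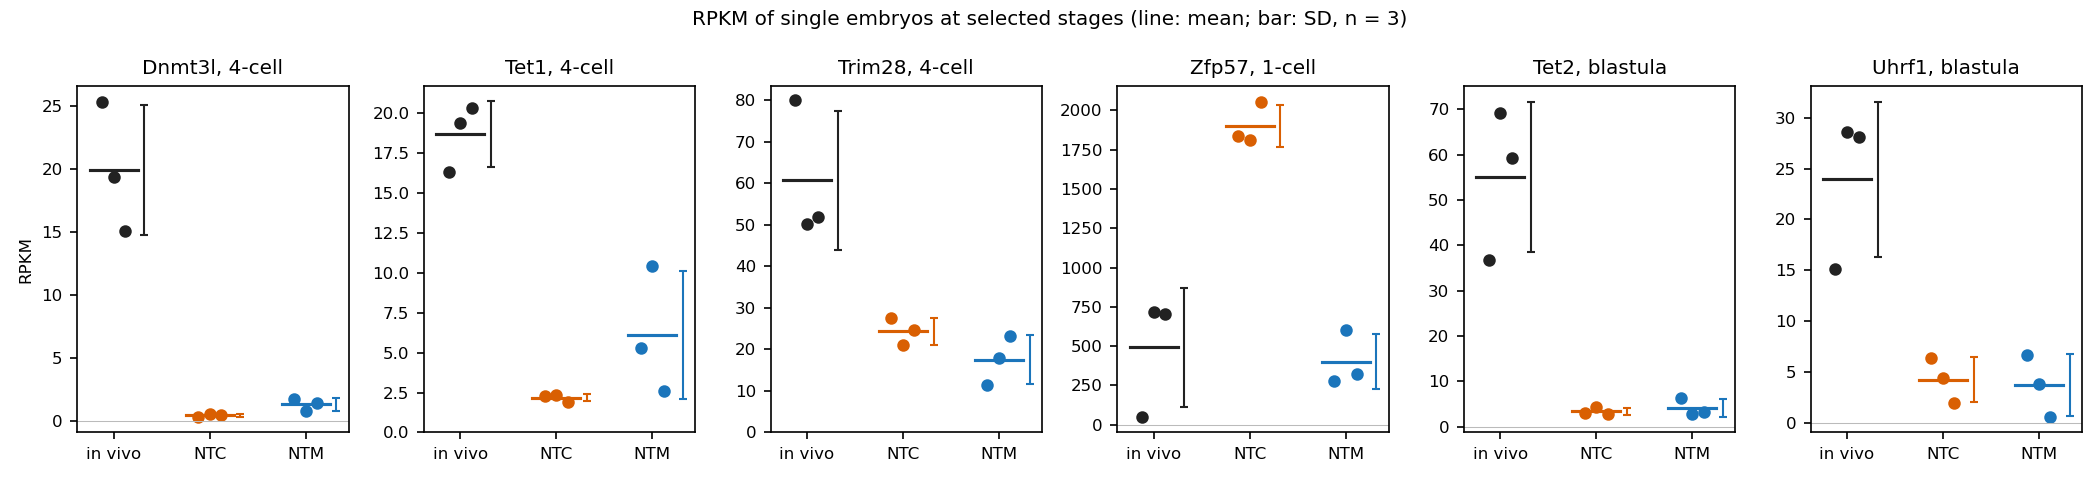
RPKM of 6 genes (y axis, one scale per panel) in the 3 single embryos of each type (points) at 1 stage, with the mean (line) and SD (bar, n = 3). In vivo embryos stand above both NT types for Dnmt3l, Tet1 and Trim28 at the 4-cell stage and for Tet2 and Uhrf1 in blastulas, while Zfp57 in 1-cell embryos is highest in NTC (1810 to 2055 RPKM).

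The imprint guard Zfp57 reached the highest level of the 10 genes, in 1-cell embryos. NTC 1-cell embryos had 1837, 1810 and 2055 RPKM, NTM embryos 276, 603 and 323, and in vivo embryos 50.7, 717 and 706. NTC values were above all others. NTM and NTC values did not overlap, as for 42.1% of all genes. NTM embryos had less than NTC embryos by 2.33 (-2.33, SE 0.26, adjusted p = 0.000801 in limma), and no single library changed this call. Among all genes 19.8% were called in this comparison and 14.2% were called lower in NTM embryos, and of the 9 members tested only Zfp57 and Dnmt3a were called, both lower. The donor cells stood in the opposite order, with 11.3, 9.31 and 16.1 RPKM in MEFs and 0.226, 0.242 and 0.193 in CCs (+3.41, SE 0.67, adjusted p = 0.0185), where 6.29% of all genes were called. That donor call was lost without any one MEF library.

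The NTC difference of Zfp57 from in vivo 1-cell embryos was +2.68 (SE 0.92, adjusted p = 0.149 in limma), and +1.41 (adjusted p = 0.000695) without in vivo replicate 1. Leaving out that library also raised the number of all genes called from 126 of 10834 to 1524 of 10971. From the 1-cell to the 2-cell stage Zfp57 fell by 3.30 in NTC embryos (SE 0.18, adjusted p = 0.000117). The 2-cell levels were 170, 236 and 177 RPKM in NTC, 221, 221 and 142 in NTM and 929, 735 and 59.5 in in vivo embryos. Without in vivo 2-cell replicate 3, its lowest library, the NTC difference went from -0.84 (adjusted p = 0.723) to -2.10 (adjusted p = 0.0134).

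In 4-cell embryos Zfp57 had 24.1, 18.6 and 10.3 RPKM in vivo, NTC embryos 10.3, 3.03 and 2.94 and NTM embryos 5.54, 1.22 and 0.372. The differences were -1.65 (SE 0.53, adjusted p = 0.0487 in limma) and -2.71 (SE 0.70, adjusted p = 0.0297). The NTC call was lost without any one of 5 of the 6 libraries and the NTM call without any one of 4, with adjusted p up to 0.175 and 0.123. Both were also lost with reads of nuclear genes only (-1.27, adjusted p = 0.137, and -2.41, adjusted p = 0.0780), with median-ratio scaling (-1.24, adjusted p = 0.138, and -2.06, adjusted p = 0.111) and with no filter (adjusted p = 0.102 and 0.0635). The NTC call was lost with a pseudocount of 0.1 (adjusted p = 0.0532) and with one fit (adjusted p = 0.0956) too. Later, NTM embryos had 0, 0.0278 and 0.0459 RPKM at the 8-cell stage and were listed at 0 in all 3 morulas, against 0.643 to 1.97 in NTC and 2.07 to 8.72 in in vivo morulas. The morula differences were not called (adjusted p = 0.236 against NTC and 0.249 against in vivo).

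Trim28, the scaffold protein that Zfp57 recruits, ran the other way, with low levels up to the 2-cell stage. It had 80.1, 50.2 and 51.9 RPKM in in vivo 4-cell embryos, NTC embryos had 27.5, 21 and 24.8 and NTM embryos 11.5, 17.8 and 23.3. The in vivo values lay above all NT values, with differences of -1.25 (SE 0.31, adjusted p = 0.0157 in limma) and -1.75 (SE 0.44, adjusted p = 0.0268). Relative to the median of all genes these were -0.87 and -1.07. Both calls were lost with median-ratio scaling (adjusted p = 0.103 and 0.152) and with reads of nuclear genes only (adjusted p = 0.0940 and 0.0823). The NTC call was also lost with one fit over all groups (adjusted p = 0.130) and without in vivo 4-cell replicate 1, and the NTM call without any one in vivo library.

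From the 2-cell to the 4-cell stage Trim28 rose by 4.18 in vivo (SE 0.37, adjusted p = 0.000122 in limma) and by 1.93 in NTC embryos (SE 0.42, adjusted p = 0.00747), and changed by +2.30 (adjusted p = 0.0637) in NTM embryos. The NTC step was smaller than that in vivo by 2.25 (-2.25, SE 0.53, adjusted p = 0.0130, interaction term), a call that no single library changed and that was lost with one fit over all groups (adjusted p = 0.0791). The 2-cell levels were 1.77, 2.47 and 2.81 RPKM in vivo and 4.56, 7.51 and 5.14 in NTC embryos, the reverse order of the 4-cell levels. In morulas NTM embryos had 13.0, 8.46 and 7.65 RPKM against 58.2, 40.1 and 49.9 in NTC embryos, without overlap, as for 23.5% of all genes (-2.25, SE 0.36, adjusted p = 0.0587).

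Between successive stages 27 changes of members were called over 15 comparisons, 5 of them rises and 22 falls. In vivo the 2-cell to 4-cell step held 8 of these, where 52.2% of all genes were called. It held 4 in NTC and 4 in NTM embryos, against 36.6 and 26.4% of all genes. In vivo 4-cell to 8-cell embryos had 4 calls, all falls, against 43.7% of all genes called and a median change of all genes of -1.05. The 1-cell to 2-cell step had 4 falls in NTC (13.5% of all genes called) and 2 in NTM embryos (9.40%), and the NTC morula to blastula step had 1 (7.16%), the fall of Trim28 by 1.35 (adjusted p = 0.0364 in limma, lost without any one of 5 of the 6 libraries, with no filter and with one fit). Of the 10 interaction tests against in vivo embryos, 8 calls were made in 4, for Dnmt3l, Tet1, Trim28 and Zfp57. The 4-cell to 8-cell interactions held 3 calls in NTC (19.5% of all genes called) and 1 in NTM embryos (18.7%).

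The remaining steps held 0 calls of members in limma. All genes called in vivo were 0% from the 1-cell to the 2-cell stage, 0.0116% to the morula and 0.801% to the blastula, with 0, 1 and 3 members at an unadjusted p under 0.05. In NTC embryos they were 0.0564% to the 8-cell stage and 0% to the morula (1 and 2 members), and in NTM embryos 0.363% to the 8-cell stage, 0% to the morula and 4.22% to the blastula (3, 2 and 2 members). The other 6 interactions called 0.0256, 0 and 0.236% of all genes for NTC and 0.204, 0.0335 and 0.647% for NTM embryos at the 1-cell to 2-cell, 8-cell to morula and morula to blastula steps, with 1 to 3 members at an unadjusted p under 0.05. After the 1-cell stage limma called 0 members between NTM and NTC embryos, against 0% of all genes at 4 stages and 0.0507% at the 8-cell stage, with 0 to 2 members at an unadjusted p under 0.05.

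NT 1-cell embryos were also set beside their donor cells. Of 10 members, 8 were called between NTC 1-cell embryos and CCs, 7 of them higher in the embryo, where 50.0% of all genes were called and 29.3% were called higher. Between NTM 1-cell embryos and MEFs 6 were called, 5 of them higher, against 55.2% of all genes called and 25.2% called higher. Uhrf1 (+5.60 and +5.61, adjusted p = 0.000458 and 0.00160 in limma), Tet3 (+4.03 and +4.55, adjusted p = 0.00330 and 0.000687) and Zfp57 (+10.60 and +4.87, adjusted p = 1.24e-05 and 5.87e-05) were higher in both embryo types. Trim28 was lower in both (-2.24 and -1.52, adjusted p = 0.0399 and 0.0156). The first of these calls was lost without any one of 5 of the 6 libraries (adjusted p up to 0.144) and with no filter (adjusted p = 0.0620), and the second with median-ratio scaling (-1.08, adjusted p = 0.0635).

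At the blastula stage 2 of 9 members were called against CCs in NTC embryos (24.2% of all genes) and 3 of 9 against MEFs in NTM embryos (30.8%). Dnmt3b was at 0.0105, 0.00619 and 0.00621 RPKM in CCs and 0.00929, 1.97 and 0 in MEFs, and was higher in blastulas by 3.2 (adjusted p = 0.00857 in limma) and 3.59 (adjusted p = 0.00541). The CC values lie below the level of 3 reads, so the size of the change from CCs depends on the pseudocount. Dnmt3l was listed at 0 in all 3 CC libraries, and no fold is given against them. Levels of single genes varied between libraries of a donor cell, and Dnmt1 had 23.3, 14.2 and 0.136 RPKM in CCs and 4.05, 19.1 and 0 in MEFs.

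Partner genes of the pathway were followed in 4 lists, whose counts at the 4-cell stage stand against 27.8% of all genes called in NTC and 21.1% in NTM embryos (20.4 and 17.8% lower). Of 12 genes of imprint protection, all tested at the 4-cell stage, NTC embryos had 2 called lower and NTM embryos 3, and neither had any called higher (0), shares near those of all genes called lower. Dppa3 (Stella), which shields the maternal genome from oxidation by Tet3, had 12402, 8284 and 9154 RPKM in in vivo 4-cell embryos, NTC embryos had 47.9, 17.8 and 28.4 and NTM embryos 25.3, 51.4 and 37.3. The differences were -8.35 (SE 0.34, adjusted p = 3.79e-06 in limma) and -8.03 (SE 0.31, adjusted p = 1.41e-05). In in vivo 2-cell embryos Dppa3 had 24.3, 48.2 and 59.2 RPKM. Ogt, a sugar transferase that binds Tet proteins, was lower in NTC embryos by 3.17 (-3.17, adjusted p = 0.00155), and Kdm1b, a histone demethylase needed for imprints in oocytes, in NTM embryos by 2.51 (-2.51, adjusted p = 0.0118). The medians of the list, -0.46 and -0.99, lay near those of all genes, -0.39 and -0.69.

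Of 10 repair partners of demethylation, 3 were called lower and 1 higher among 10 tested in NTC 4-cell embryos, and 2 lower and 1 higher among 9 in NTM embryos, against the same 27.8 and 21.1% of all genes called. Apex1, the nuclease that cuts at sites where a base was removed, had 41.7, 43.7 and 52.9 RPKM in vivo, and no NTC library exceeded 0.237 and no NTM library 0.458 (-5.35 and -5.37, adjusted p = 2.50e-05 and 0.000446 in limma). Like Dnmt3l, Apex1 was low in in vivo 2-cell libraries (0.340, 0 and 0 RPKM). Lig3, a DNA ligase of this repair path, was lower by 2.32 and 2.68 (-2.32 and -2.68, adjusted p = 0.0147 and 0.0143). The stress gene Gadd45b was higher in NTC embryos (30.3, 83.3 and 32.6 RPKM against 1.26, 1.59 and 0.774, +4.35, adjusted p = 0.000282). In blastulas the single call over the 4 lists was Gadd45g in NTC embryos, with 8.01, 10.6 and 8.85 RPKM against 0 in all 3 in vivo libraries (adjusted p = 0.0250).

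Among 9 methyl-CpG readers, 6 were tested at the 4-cell stage, with 2 higher and 1 lower in NTC and 1 higher and 1 lower in NTM embryos, again against 27.8 and 21.1% of all genes. Mbd3, a subunit of the NuRD complex, was higher by 2.65 and 2.64 (adjusted p = 0.00168 and 0.00880 in limma), with 70, 47.2 and 59.5 RPKM in NTC and 74.0, 51.7 and 50.0 in NTM against 4.55, 10 and 12.7 in in vivo embryos. Mbd4, a glycosylase for mismatches at CpG, was lower by 1.63 and 2.01 (-1.63 and -2.01, adjusted p = 0.0448 and 0.0188). Of 10 genes of methyl donor supply, 8 were tested, with 2 lower in NTC and 0 in NTM embryos. One of them was Mat2a, which makes S-adenosylmethionine, lower in NTC by 1.70 (-1.70, adjusted p = 0.0368).

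Genes whose group means over the 18 embryo groups were most like those of a member, among 10571 genes with a mean of at least 1 RPKM, were for Dnmt3l D6Wsu163e (Pearson r = 0.94) and Idnk (r = 0.94), for Tet1 Ndufb10 (r = 0.94) and Chmp2a (r = 0.94), and for Tet2 Slc28a3 (r = 0.95) and BC048679 (r = 0.91). For Trim28 they were Parp1 (r = 0.96), which is also in the repair list, and Isyna1 (r = 0.93). For Tet3 they were 4933427D06Rik and Ifitm6 (both r = 0.99), for Zfp57 Ddx19a (r = 0.99) and Gm13084 (r = 0.98), for Uhrf1 Dcaf8 (r = 0.98) and Tspyl1 (r = 0.97), and for Dnmt1 Acsl1 and Vcpip1 (both r = 0.96). For Dnmt3a they were Tfe3 and Deptor (both r = 0.93), and for Dnmt3b Plet1 and Havcr1 (both r = 0.87). These are descriptions over 18 means that share libraries and stages. With the donor groups included, Slc28a3 and BC048679 stayed the nearest to Tet2, and Parp1 the nearest to Trim28.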

How the data were processed

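Single-embryo cDNA was amplified for 18 to 20 cycles without molecular identifiers. Per the study's methods the reads were mapped with TopHat (2.0.12) and Bowtie2 (2.2.3) and counted with HTSeq (0.6.0), while the submitters' processing notes name Bowtie 0.12.2 and the build mm8. The authors deposited 1 table of RPKM values, which were used as deposited, and whose methods call the unit FPKM. Samples were grouped by their titles, 3 libraries per group. Embryos were collected in separate experiments, but no label ties a library to one, so p-values measure the spread between these 3 libraries.

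Depth was recovered from the steps of the RPKM values at GENCODE M21 exon lengths, where at least 75.2% of low values in a library were whole reads (within 0.05). All low values of the 10 genes were whole reads, and higher ones were not checked. For Dnmt1, Tet1 and Trim28 another length was itself chosen to make low values whole reads, so this is no check of it. By counting alone 3 reads are the most that a value of 0 allows. Mitochondrial shares are approximate.

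limma (3.58.1, R 4.3.3; lmFit, eBayes with an intensity trend) was fitted to log2(RPKM + 1) for each of 48 comparisons, over genes averaging 0.5 RPKM or more, and tested on simulated data. RPKM are not counts, so the study's count test was not used. The pseudocount understates changes of low genes. Alternatives were a pseudocount of 0.1, no filter, median-ratio scaling, nuclear genes only, a joint fit of the 20 groups, the replicate number as a block, calls by adjusted p alone and leaving out libraries. Promoter windows are from RefSeq, read with Python 3.11.15, numpy 2.4.6 and pandas 2.3.3. Figures used matplotlib 3.10.9.

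The members, lists and tests were chosen with earlier results of these data known. Named genes are the 10 members, for each the 2 genes with the highest Pearson correlation of group means over 18 embryo groups, and of the 4 pathway lists at most the 2 called genes with the largest change in each direction of a comparison.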

Additional observations from a re-analysis of the deposited data

Results flagged for a closer look

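Changes between successive stages that differed between an NT type and in vivo embryos, by the interaction term in limma over 12 libraries (adjusted p over all genes), were found for 4 genes. For Dnmt3l the 2-cell to 4-cell change differed by -4.36 (adjusted p = 0.000506) in NTC and -3.41 (adjusted p = 0.0140) in NTM embryos, and the 4-cell to 8-cell change by +3.79 (adjusted p = 0.000661) and +3.40 (adjusted p = 0.00224). No single library ended any of these 4 calls, and the NTM 2-cell to 4-cell call was lost with a pseudocount of 0.1 (adjusted p = 0.0857).

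For Tet1 in NTC embryos the same changes differed by -2.23 (adjusted p = 0.0439) and +2.78 (adjusted p = 0.0181). The first call was lost without any one of 11 of the 12 libraries and with both scalings (adjusted p = 0.105 with median-ratio scaling and 0.115 with nuclear genes only), and the second with both scalings (+1.83, adjusted p = 0.12, and +2.45, adjusted p = 0.0543). For Trim28 in NTC embryos the 2-cell to 4-cell change differed by -2.25 (adjusted p = 0.0130), not called with one fit over all groups (adjusted p = 0.0791). For Zfp57 in NTC embryos the 4-cell to 8-cell change differed by +2.89 (adjusted p = 0.0398), a call lost without any one of 8 of the 12 libraries and with median-ratio scaling (adjusted p = 0.197), nuclear genes only (adjusted p = 0.105), a pseudocount of 0.1 (adjusted p = 0.0638) or no filter (adjusted p = 0.0807). All 8 comparisons share the in vivo 4-cell libraries, and successive steps share their middle stage, so they are not independent of each other.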

How the results depend on the processing

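No call of a member turned its direction under any alternative. Of the 65 calls in all 48 comparisons, 57 were kept with a pseudocount of 0.1, 51 with no filter, 50 with median-ratio scaling, 56 with nuclear reads only and 54 with one fit over all 20 groups, and 41 were kept without each single library in turn. The 8 calls against in vivo embryos became 4 with median-ratio scaling and 5 with nuclear reads only, and 2 to 5 without 1 replicate of every group. The 8 interaction calls became 5 with a pseudocount of 0.1, with median-ratio scaling and with nuclear reads only, and 2 to 4 without 1 replicate of every group. The 2 calls of NTM against NTC embryos became 1 with no filter, with one fit and with a replicate block, and 1 to 2 without 1 replicate. Without 1 replicate of every group the 27 stage calls became 16, the 19 donor calls 8 to 13, and the 1 call of MEFs against CCs 0. These fits have fewer samples, and for the other alternatives the cause was not tested. Median-ratio scaling moved the median of all genes by over 0.1 in 41 of 48 comparisons (-0.66 to 0.87) and flipped the sign of 38 of 432 changes of members, none of which was 1 or more in size.

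With the replicate number as a block, 51 of the 65 calls were kept, and the counts were 6 against in vivo embryos, 22 between stages, 7 interactions and 15 against donors. The correlation of same-numbered libraries was -0.20 to 0.12, and in 0 of 33 comparisons did every pair exceed 0.1, so the numbers were not taken to pair the libraries. Depth limits the low values, where 3 reads equal 0.00372 RPKM (Tet2 in MEF replicate 3) to 0.190 RPKM (Dnmt3l in NTC 2-cell replicate 3).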
